A study of Mus musculus with 18 samples.

Results

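Telomere-repeat joins near the bait coding end are recovered junctions whose bait, read from a RAG recombination substrate, ended close to its coding end and whose prey was made of the hexamer repeat that caps chromosomes. A junction line was counted as such a near-end telomere-repeat join when its prey lay outside the recombination substrate, its prey bases held at least 3 exact copies of the 6-bp repeat unit on either strand, and its bait ended at substrate position 1993 or before. The first coding base of the bait is 1943, so the position limit admits losses of up to 50 bp from the coding end. In the 12 coding-join libraries 8487 of 30937 junction lines met the rule, 27.4% of all lines and 59.6% of the 14251 lines with telomere-repeat prey. The other 5764 telomere-repeat lines had lost more of the bait and are called resected here. Lines that shared a bait end and the 12 read bases after it were counted as 1 distinct event, which gave 2055 events. The members were thus selected on the measured repeat content and bait end, and neither is a result in itself.

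The libraries came from v-abl-transformed mouse B cells (strain 129), immortal precursor B cells driven by a viral Abl kinase, with a stably integrated pMX-INV substrate that carries a pair of RAG recombination signals. The 4 genotypes were CtIP A/A DNA-PKcs -/-, DNA-PKcs -/-, CtIP A/A and WT, each with 2 libraries from cells arrested in G2 and 1 from cells arrested in G1. For G1, cells were kept in 3 µM of the Abl inhibitor STI571 for 48 or 72 h, and for G2 they spent 24 h in STI571 and then 48 h in 10 µM of the CDK1 inhibitor RO3306. Whether replicates were separate cultures or lines is not stated in the labels. The p-values therefore measure only how these samples scatter, which may be technical, and genotype and cell line cannot be told apart. Junction tables hold no marker gene, so neither the cell type nor the genotype could be checked against its markers.

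RAG cuts beside a heptamer and leaves each coding end sealed as a hairpin. DNA-PKcs, the kinase subunit that works with the nuclease Artemis in classical end joining, is needed to open these hairpins efficiently. CtIP starts resection at broken ends, and in the A/A allele alanine replaces a conserved ATM/ATR phosphorylation site. Telomeres end in repeats whose G-rich strand points towards the chromosome end and whose C-rich strand, read 5′ to 3′, runs from the end inwards. A bait attached to a chromosome end is therefore followed by C-rich repeat, whereas a repeat added by telomerase to the bait itself would read as G-rich. Interstitial repeat arrays inside chromosomes can be met in either direction.

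The largest event of each genotype shows what such a join looks like. In CtIP A/A DNA-PKcs -/- cells it was an event of 274 lines at bait end 1975 in the G1 library, and in DNA-PKcs -/- cells an event of 265 lines at bait end 1993 in the G1 library. In CtIP A/A cells no event had more than 3 lines, and both events of that size, 1 in each G2 library, had bait end 1914. In WT cells the 5 leading events of the G1 library were tied at 3 lines each, 3 of them at bait end 1914, 1 at 1941 and 1 at 1952. All these events read in the C-rich direction. Bait end 1914 lies 29 bp before the coding border, beyond the signal sequence of 28 bp, and 1952 lies 9 bp inside the coding segment. The 265-line event sits on the last position that the rule admits.

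Some large events did not begin with pure repeat, and these examples were picked out after their values were seen. DNA-PKcs -/- G1 had 93 lines at bait end 1964, with 8 bases between the bait and the first base of unbroken repeat. DNA-PKcs -/- G2 replicate 2 had 50 lines at 1941 with 1 such base, and DNA-PKcs -/- G2 replicate 1 had 41 lines at 1987 with 2. CtIP A/A DNA-PKcs -/- G2 replicate 2 had 2 events of 42 lines, at 1944 with 6 such bases and at 1962 with 1. Such bases need not be foreign to the repeat, since a single departing base breaks the run. In 51 of the 93 lines at 1964 the 8 bases themselves began with repeat bases. The deposited alignments read the event at 1944 as having bases shared by bait and prey.

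Near-end telomere-repeat joins were a common product without DNA-PKcs and a rare one with it. They made up 45.4%, 17.8% and 35.7% of the lines in CtIP A/A DNA-PKcs -/- cells (G2 replicate 1, G2 replicate 2 and G1). In DNA-PKcs -/- cells the shares were 34.8%, 57.8% and 16.6% in the same order. In CtIP A/A cells they were 2.06%, 2.73% and 0.360%, and in WT cells 1.495%, 1.04% and 1.17%. All 6 libraries without DNA-PKcs lay above all 6 with it. The means were 34.7% ± 15.9 without DNA-PKcs and 1.47% ± 0.830 with it (SD, n = 6 libraries each), from 8411 and 76 lines. Depth differed in the same direction, with 2381 to 7068 lines per library without DNA-PKcs and 289 to 2993 with it. A library of 834 lines, CtIP A/A G1, held 3 near-end joins, and its 95% Wilson interval of 0.122% to 1.05% covers counting error only, since reads carry no molecular identifiers.

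**Figure D1:**
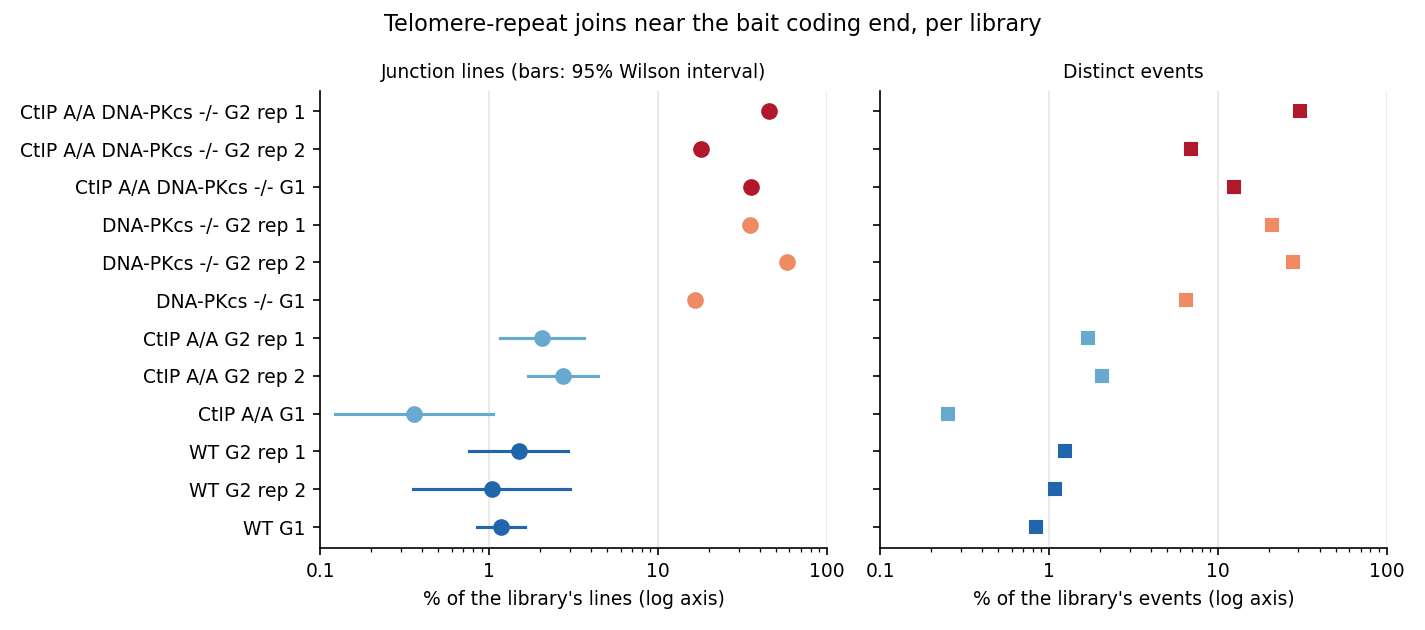
Near-end telomere-repeat joins in each of the 12 libraries as a percentage of junction lines (left, circles with 95% Wilson intervals) and of distinct events (right, squares), both on log axes. The 6 libraries without DNA-PKcs, in red and orange, lie between 16.6% and 57.8% of lines, and the 6 with DNA-PKcs, in blue, between 0.360% and 2.73%.

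By distinct events the shares were 17.5% ± 10.5 without DNA-PKcs (6.46% to 30.8%) and 1.20% ± 0.638 with it (0.252% to 2.06%; SD, n = 6 each), again without overlap. With the 4 strata of CtIP allele and phase weighted equally, the difference without minus with DNA-PKcs was 31.3 points of lines (interval 15.4 to 50.05) and 14.5 points of events (5.36 to 27.9). An exact, two-sided permutation within strata gave p = 0.0139 for both, the smallest value the design allows, and adjusted p = 0.0417 over 6 tests. The adjusted p was 0.0938 (exact permutation) with the replicate number as a block, which also separates the G2 libraries by run. It was 0.0741 or 0.0833 (exact permutation) when any of 6 single libraries was left out, the 4 G1 libraries and both CtIP A/A G2 libraries. All these settings allow fewer arrangements. With the replicate block, and without any G1 library, the p before adjustment was the smallest that the setting allows. Where a CtIP A/A G2 library was left out, fewer arrangements alone need not account for the lost call. The contrast was known when the joins were singled out, so the test is no independent evidence of its direction. Within sequencing run 1, which held the first G2 replicates, the differences were 38.3 points of lines and 24.3 of events. Within run 2, which held the other libraries, they were 30.7 and 12.3 points. The smallest p within a run is 0.5 or 0.125 (exact permutation), so neither run could pass alone. With events merged when up to 2 of the 12 bases differed, the event difference was 6.44 points (p = 0.0139, exact permutation) in place of 14.5.

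Neither the CtIP allele nor the arrest phase moved the share past the threshold. The line share averaged 17.5% with CtIP A/A and 16.3% with WT CtIP over 4 strata, a difference of 1.18 points (interval -19.5 to 13.3, adjusted p = 0.917, exact permutation), higher in 2 of 4 strata. For events the difference was 0.195 points (-10.2 to 6.06, adjusted p = 0.917, exact permutation). G2 minus G1 was 6.95 points of lines (20.4% in G2 and 13.5% in G1, interval -11.9 to 25.8, adjusted p = 0.537, exact permutation) and 6.52 points of events (-4.96 to 18.3, adjusted p = 0.494, exact permutation). Events were higher in G2 in 4 of 4 genotypes and lines in 3 of 4. Without CtIP A/A DNA-PKcs -/- G2 replicate 2 the phase difference in events was 9.504 points with adjusted p = 0.0370 (exact permutation), and over all single libraries left out it ran from 2.76 to 9.504 points. The G2 replicates of the genotypes without DNA-PKcs stood far apart, at 45.4% against 17.8% of lines in CtIP A/A DNA-PKcs -/- and at 34.8% against 57.8% in DNA-PKcs -/-.

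How much of the telomere class lay near the coding end varied from library to library. Near-end joins took 59.2%, 46.5% and 77.3% of telomere-repeat lines in CtIP A/A DNA-PKcs -/- (G2 replicate 1, G2 replicate 2, G1) and 51.5%, 99.5% and 31.8% in DNA-PKcs -/-. DNA-PKcs -/- G2 replicate 2 had 1376 near-end and 7 resected lines, and DNA-PKcs -/- G1 had 837 near-end and 1794 resected lines. With DNA-PKcs the near-end part was 37.8% ± 19.1 of telomere-repeat lines (SD, n = 6). The limit of 50 bp cut through a populated stretch, with 569 lines on the 5 positions just inside it (1989 to 1993) and 1340 on the 5 just outside (1994 to 1998). At the repeat limit, 890 lines had exactly 3 units, and 614 further lines under the same bait limit had exactly 2. The median read held 7 exact units, the 10th and 90th percentiles were 3 and 10, and the largest number was 16.

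The libraries without DNA-PKcs drew on many of the same bait ends and weighted them differently. Of the 58 bait ends used in any of them, 44 were used in 4 or more and 13 in all 6. Over their distinct events the 5 leading bait ends were 1944, 1955, 1952, 1993 and 1950, with mean shares of 7.39%, 6.29%, 6.09%, 4.93% and 4.46% (n = 6 libraries). Coding joins with the same loss limit placed 2.46%, 3.61%, 3.27%, 0.670% and 2.53% of their events there. A coding join is the substrate junction that the recombination signals are built to form, within 1000 bp of the main prey position on its strand. Coding joins used most positions from 1940 to 1993 in all 6 of these libraries, so near-end joins shared fewer bait ends than they did. The loss limit confines both classes to a short stretch, where sharing is easily reached. Position 1944 took from 0% to 35.2% of near-end events depending on the library, and position 1993 from 0% to 25.7%. In the zone of 21 to 50 bp lost lay 79.8% of the lines of DNA-PKcs -/- G1 and 3.94% of those of CtIP A/A DNA-PKcs -/- G2 replicate 2. In the zone of 0 to 4 bp lost the same libraries had 0% and 47.5%. Over the 6 libraries this last zone held 12.1% ± 15.3 of near-end events and 13.2% ± 1.43 of coding-join events (SD), so the means lie close together while the spread between libraries is far wider for the telomere joins. Bait ends that kept heptamer bases held 3.90% ± 3.58 of near-end events and 9.21% ± 1.98 of coding-join events. These zone shares are descriptions, since the bait end was part of the rule.

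**Figure D2:**
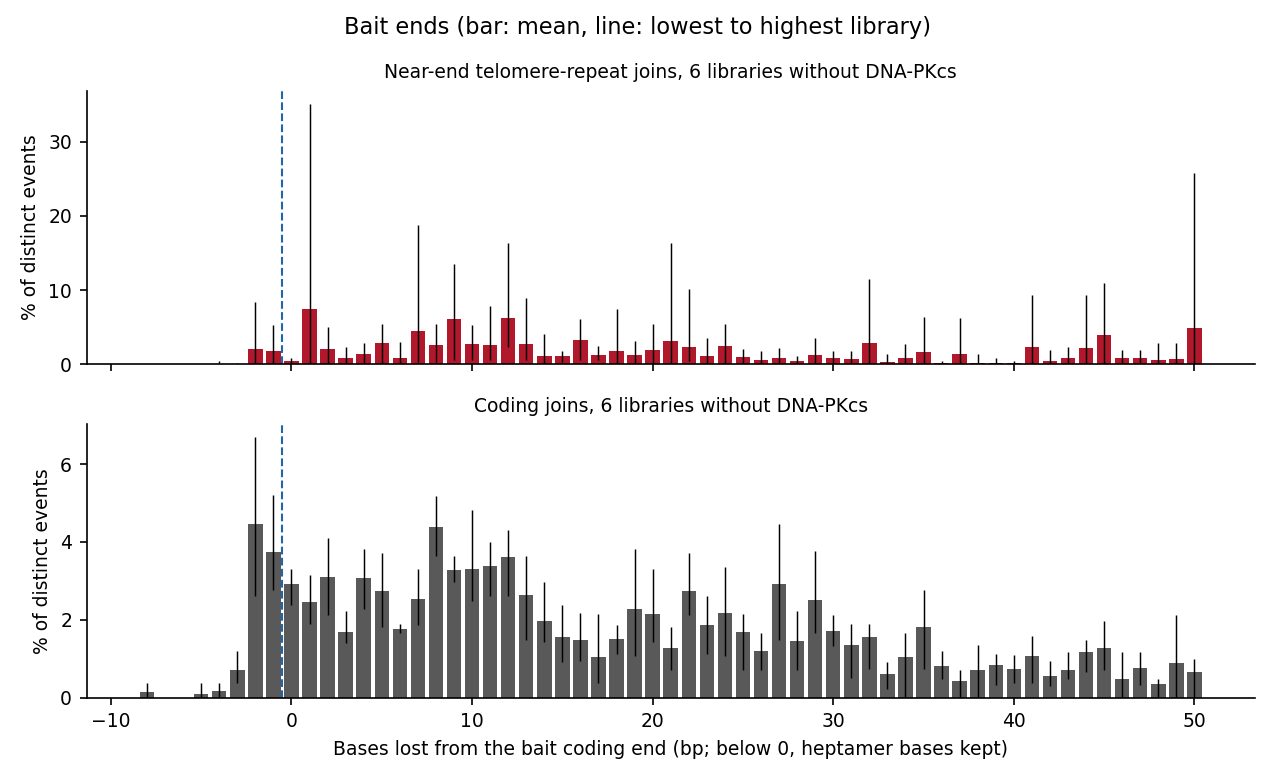
Percentage of distinct events at each bait end, in bp lost from the coding end, for near-end telomere-repeat joins (top) and coding joins (bottom) in the 6 libraries without DNA-PKcs. Bars are means over libraries, thin lines run from the lowest to the highest library, and the dashed line marks the coding border. The telomere joins have tall lines over low bars, up to 35.2% in 1 library at 1 bp lost, whereas the coding joins vary little between libraries.

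The near-end joins had many lines per event, and how far a few events dominated differed between libraries. In the libraries without DNA-PKcs they had 4.21 ± 0.530 lines per event, against 1.02 ± 0.00495 for the coding joins of the same libraries (SD, n = 6). With DNA-PKcs the near-end joins had 1.36 ± 0.192 lines per event and the coding joins 1.02 ± 0.00629. Resected telomere-repeat joins without DNA-PKcs also had more lines than events, so this was not particular to near-end joins. They had 1305 lines in 239 events, 583 in 106 and 739 in 192 in CtIP A/A DNA-PKcs -/- (G2 replicate 1, G2 replicate 2, G1). In DNA-PKcs -/- they had 1201 lines in 245 events, 7 in 5 and 1794 in 401. The largest event held 4.33%, 25.2% and 10.9% of the near-end lines of CtIP A/A DNA-PKcs -/- (G2 replicate 1, G2 replicate 2, G1) and 8.39%, 12.1% and 31.7% of those of DNA-PKcs -/-. For coding joins the largest event held 0.292% to 0.730% of the lines of the 6 libraries. The 5 largest events together took 17.4%, 66.5% and 42.6% of the near-end lines of CtIP A/A DNA-PKcs -/- in the same order, and 27.04%, 37.7% and 65.6% of those of DNA-PKcs -/-. The number of events that held 50% of the lines was 24, 4 and 7 in CtIP A/A DNA-PKcs -/- and 16, 10 and 3 in DNA-PKcs -/-.

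Events with at least 30 lines numbered 59, all in the 6 libraries without DNA-PKcs, and they held 4593 lines, 54.1% of all near-end lines. They used 35 bait ends. Each had 21 to 74 distinct lengths of sequence after the bait (median 36), so the lines of an event were not copies of 1 identical read. The largest, at bait end 1975 in CtIP A/A DNA-PKcs -/- G1, had 274 lines, 257 distinct read sequences and 71 lengths. The event at 1993 in DNA-PKcs -/- G1 had 265 lines, 254 read sequences and 74 lengths. Whether lines of an event came from 1 joined molecule copied in the cells, from copying in the library, or from separate joins at the same place was not tested. At the other extreme, 76.8% ± 2.97 of the near-end events without DNA-PKcs had a single line (SD, n = 6). Merging keys with up to 2 differing bases left 49 to 176 events per library without DNA-PKcs, in place of 128 to 523.

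**Figure D3:**
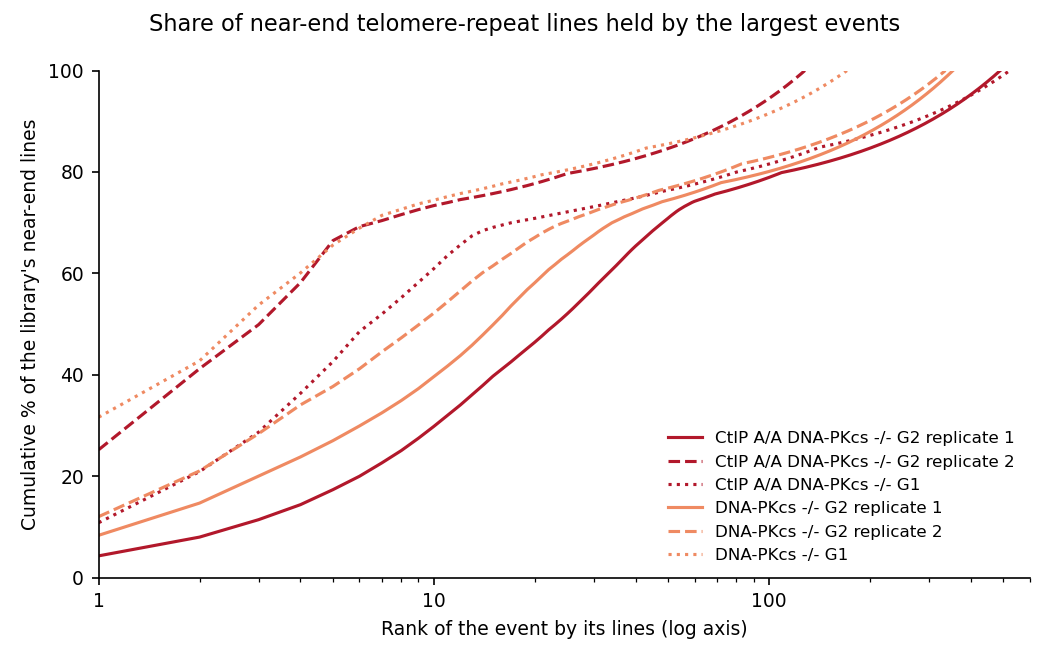
Cumulative percentage of near-end telomere-repeat lines held by the events of each of the 6 libraries without DNA-PKcs, ranked by their number of lines (log axis). The curves of DNA-PKcs -/- G1 and CtIP A/A DNA-PKcs -/- G2 replicate 2 start at 31.7% and 25.2%, and that of CtIP A/A DNA-PKcs -/- G2 replicate 1 starts at 4.33%.

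The repeat can begin at any of its 6 bases, here numbered as registers 1 (CCCTAA), 2 (CCTAAC), 3 (CTAACC), 4 (TAACCC), 5 (AACCCT) and 6 (ACCCTA) among events whose 12 key bases were pure repeat. All 6 registers occurred. Without DNA-PKcs their mean shares of lines were 22.2%, 27.2%, 12.5%, 15.2%, 13.9% and 8.97% (n = 6 libraries). The leading register differed between libraries. Register 4 took 51.8% of such lines in DNA-PKcs -/- G1 and 0% in DNA-PKcs -/- G2 replicate 2. Register 5 took 47.0% in CtIP A/A DNA-PKcs -/- G2 replicate 2 and 1.35% in DNA-PKcs -/- G2 replicate 1. Counting each pair of bait end and register once, the shares were more even, from 10.8% ± 6.22 for register 4 to 25.7% ± 3.70 for register 1 (SD, n = 6).

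Bait ends from the heptamer to 50 bp of loss combine with the 6 registers into 348 pairs. Where the next substrate base equals the first repeat base, the bait alignment would run on and the pair cannot be recorded, which leaves 257. A library without DNA-PKcs used 15 to 81 of the 257 pairs (5.84% to 31.5%), and 114 pairs (44.4%) were seen in none of the 6. Of the 143 pairs that were seen, 69 occurred in 1 library and 74 in 2 or more, and the 74 held 78.6% of the lines on pairs. A single pair, bait end 1955 with register 1, was seen in all 6. It had 26, 1 and 149 lines in CtIP A/A DNA-PKcs -/- (G2 replicate 1, G2 replicate 2, G1) and 11, 7 and 92 lines in DNA-PKcs -/-. Bait end 1975 with register 2 had 13, 0 and 274 lines in CtIP A/A DNA-PKcs -/- and 21, 0 and 1 in DNA-PKcs -/-, a pair that 1 library dominated. Bait end 1961 with register 2 had 196 lines in CtIP A/A DNA-PKcs -/- G1 and none in the other 5 libraries without DNA-PKcs. Bait end 1963 with register 2 had 82 lines in CtIP A/A DNA-PKcs -/- G2 replicate 1 and 81 in DNA-PKcs -/- G2 replicate 1, both of run 1.

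**Figure D4:**
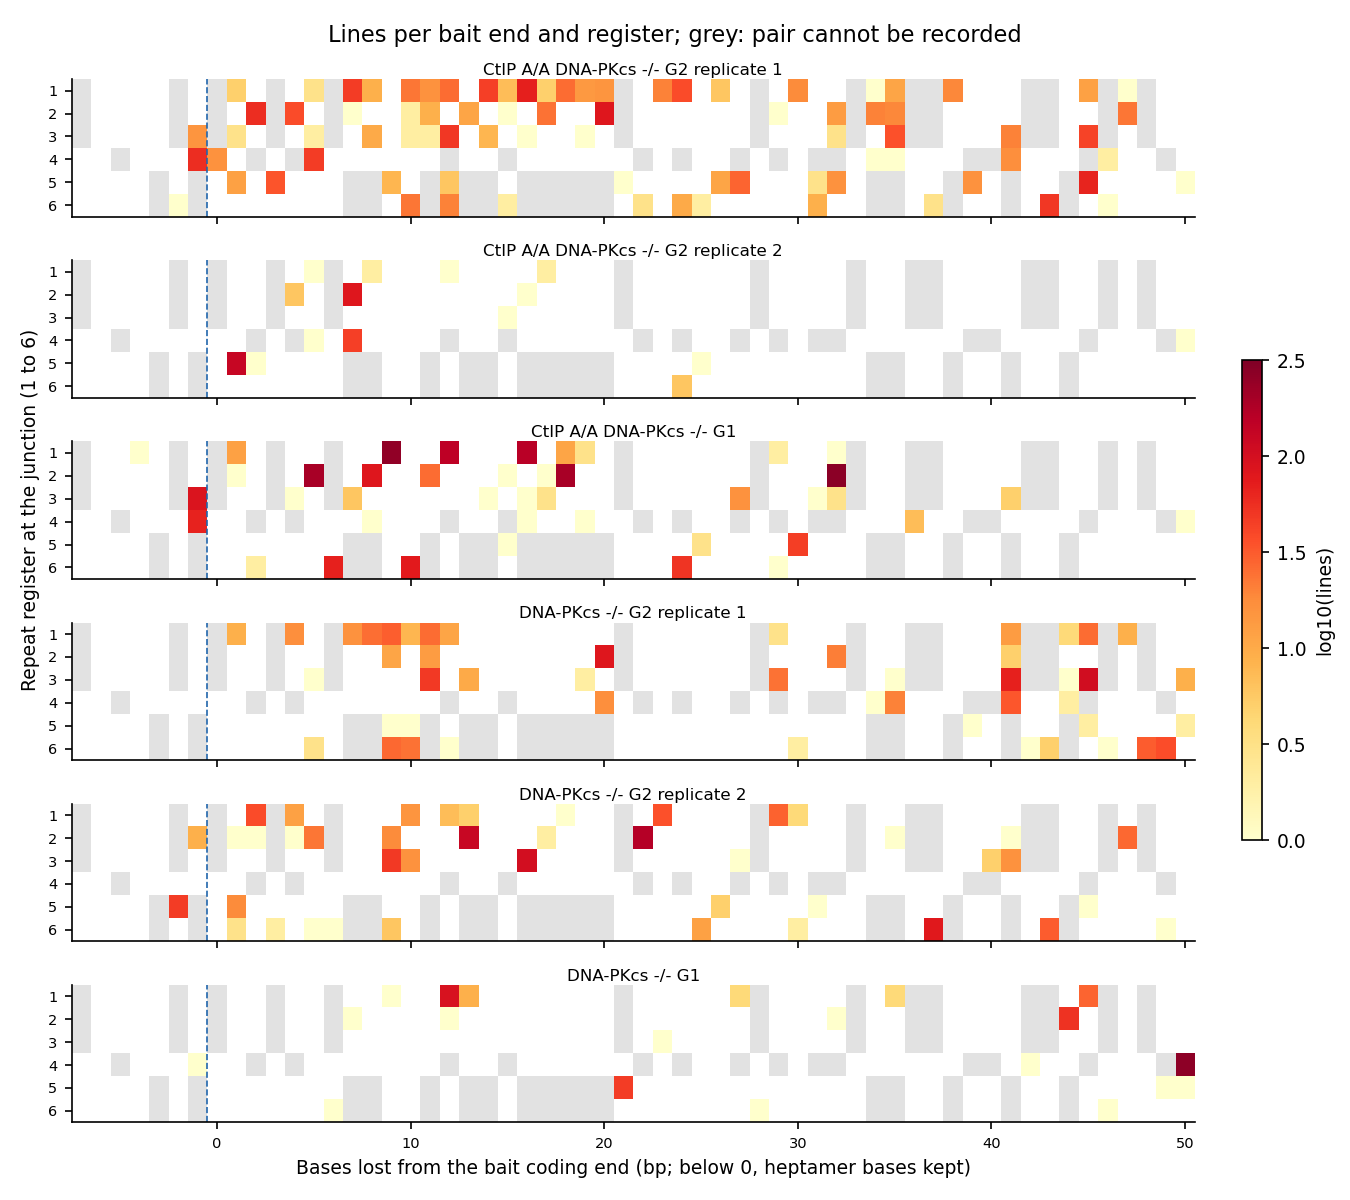
Lines at each pair of bait end (bp lost from the coding end) and repeat register in the 6 libraries without DNA-PKcs, coloured by the base 10 logarithm of the number of lines. Grey pairs cannot be recorded and white pairs had no line, and the dashed line marks the coding border. Of the 143 pairs with lines, 74 are filled in 2 or more libraries, and the darkest pairs, up to 274 lines, sit in different places from library to library.

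Pairs in which the last bait bases could equally belong to the repeat made up, on average, more of the used pairs and lines than of the recordable pairs. Of the 257 pairs, 24.9% have at least 1 such shared base by sequence, 7.004% at least 2 and 2.33% at least 3. Among the pairs used in a library without DNA-PKcs, 37.2% ± 6.43, 17.5% ± 4.10 and 8.76% ± 1.84 did (SD, n = 6). Among lines the shares were 46.4% ± 15.5, 29.8% ± 13.9 and 14.1% ± 11.5. The lowest library had 18.1% of its lines on pairs with at least 2 shared bases, above the 7.004% of pairs. For at least 3 shared bases the libraries ran from 0.361% to 34.2% of lines, on both sides of 2.33%. A join at a pair that cannot be recorded is recorded where the bait alignment stops, with shared bases. Even use of all joins would thus itself favour pairs with shared bases over their share of the 257. How much of the difference this gives was not tested. The pairs are also not equally open to use in other respects, such as the bait loss they need, so these figures are descriptions without a test.

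The way bait and repeat met was read from the deposited alignments and from the first base of an unbroken repeat run of at least 9 bases, each per event and per line, and the inserted share depended on both choices. By the alignments, 48.2% ± 5.15 of near-end events without DNA-PKcs had inserted bases, against 27.3% ± 5.13 of their coding-join events (SD, n = 6), and 37.7% ± 5.25 of near-end lines, against 27.4% ± 5.29 of coding-join lines. By the repeat run the near-end shares were 65.2% ± 5.09 of events and 27.1% ± 7.50 of lines (SD, n = 6), with coding joins as before. The repeat run thus gave a higher inserted share than the alignments per event and a lower one per line. Repeat bases that a departure near the bait cuts off from the run count as inserted by the repeat run.

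The inserted share of near-end joins minus that of coding joins was 20.9 points ± 6.08 for events by the alignments (adjusted p = 0.125, exact sign-flip permutation), higher in 6 of 6 libraries. It was 37.9 points for events by the repeat run (adjusted p = 0.0625) and 10.3 points for lines by the alignments (adjusted p = 0.125, exact permutation). Lines by the repeat run gave -0.274 points (exact permutation, adjusted p = 0.938). The smallest p that 6 libraries allow is 0.0312 before adjustment. A departure in the 12 key bases made a separate event, and near-end joins had 4.21 lines per event against 1.02 for coding joins. Merging keys with up to 2 differing bases left 49 to 176 near-end events per library in place of 128 to 523. Event shares can therefore count variant reads of a near-end join more than once. Direct joins made up 23.2% ± 4.49 of near-end and 35.5% ± 2.17 of coding-join events by the alignments, and joins with overlapping bases (microhomology) 28.6% ± 6.36 and 37.2% ± 6.38. Per line, direct joins were 37.8% ± 10.4 of near-end joins by the repeat run and 35.3% ± 2.06 of coding joins by the alignments. Overlapping joins were 35.1% ± 13.5 and 37.3% ± 6.40 by the same readings. These restrictions to the libraries without DNA-PKcs were added after the data were seen.

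**Figure D5:**
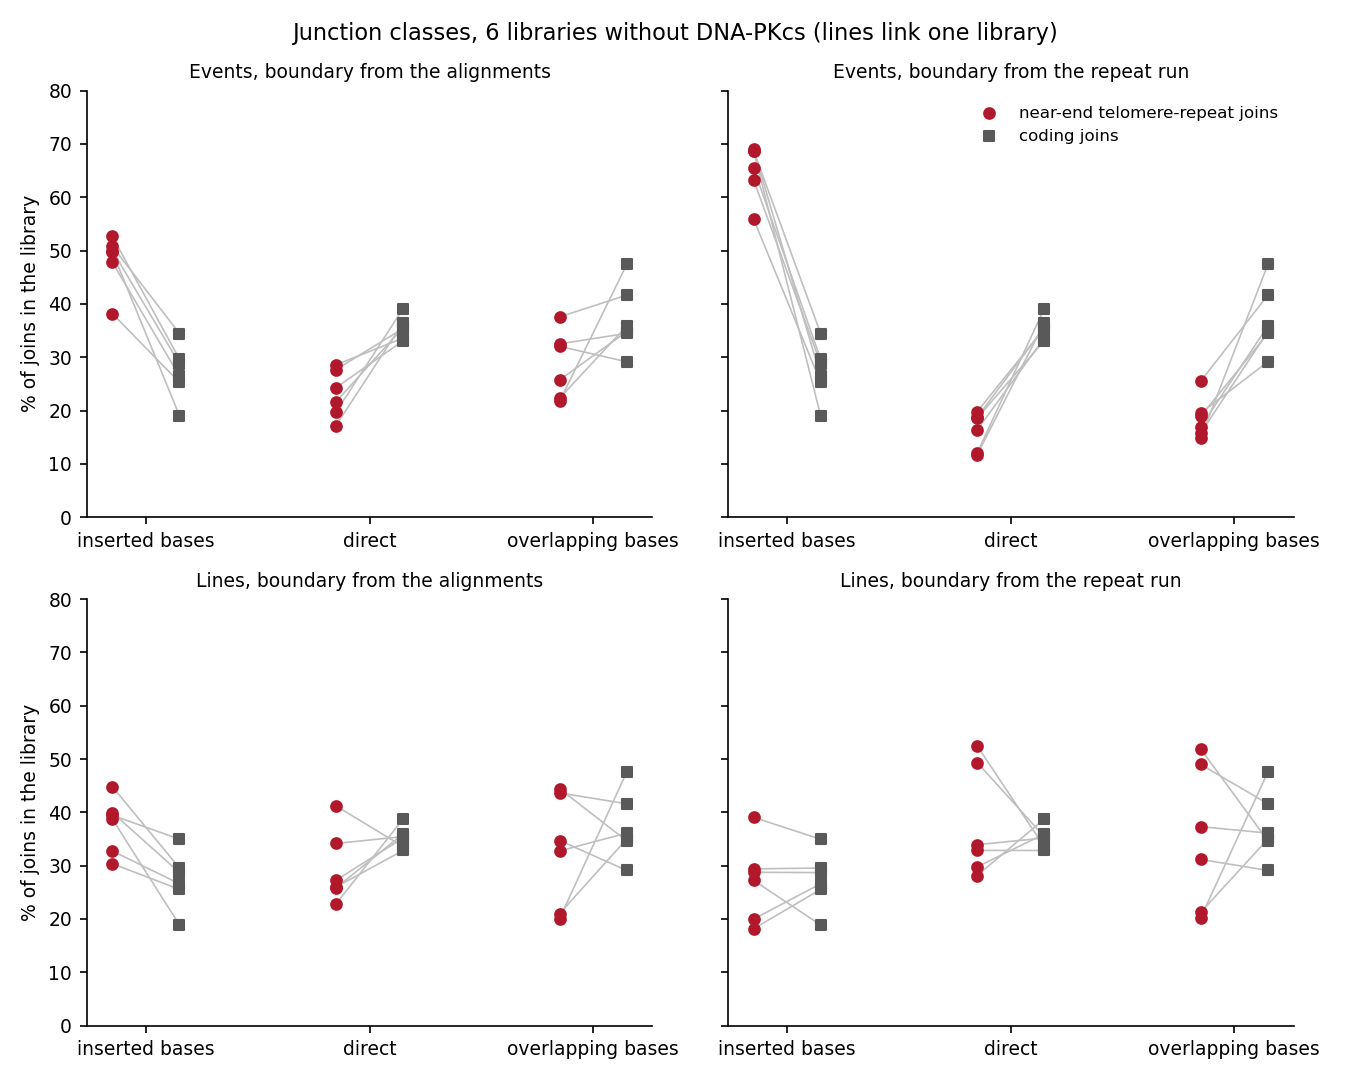
Percentage of joins with inserted bases, with a direct junction and with overlapping bases in the 6 libraries without DNA-PKcs, for near-end telomere-repeat joins (red circles) and coding joins (grey squares), with grey lines linking the values of a library. Panels give events (top) and lines (bottom) with the boundary from the alignments (left) and from the repeat run (right). Coding joins are read by the alignments in all panels. Mean inserted shares are 48.2% against 27.3% and 65.2% against 27.3% for events, and 37.7% against 27.4% and 27.1% against 27.4% for lines.

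Over the 10 libraries with at least 5 events on both sides, with and without DNA-PKcs, none of the 4 within-library comparisons passed the threshold. Inserted joins were 48.9% ± 14.2 of near-end and 43.4% ± 21.2 of coding-join events, a difference of 5.49 points, higher in 7 of 10 libraries (adjusted p = 0.967, exact permutation). With DNA-PKcs the coding joins were themselves mostly inserted, at 68.6% ± 2.53 (SD, n = 6), and the difference there was -17.7 points ± 23.2 (n = 4). Overlapping joins were 29.4% ± 9.22 of near-end and 29.2% ± 11.4 of coding-join events, a difference of 0.186 points (adjusted p = 0.967, exact permutation). Against resected telomere-repeat joins the inserted share of near-end joins differed by 1.003 points (48.9% and 47.9%, higher in 5 of 10, adjusted p = 0.967, exact permutation). By the repeat-run reading, which can count broken repeat next to the bait as inserted, inserted stretches were short. Insertions of 1 base made up 5.43% of lines without DNA-PKcs (2.03% to 11.6%), and those of 6 bases, the length of a repeat unit, 3.50% (1.57% to 8.88%).

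Among the near-end joins themselves, no effect of DNA-PKcs, CtIP or phase on the inserted share passed the threshold. The inserted share of events was 2.05 points lower without DNA-PKcs than with it (49.0% and 51.0% over 3 strata), 4.54 points lower with CtIP A/A than with WT CtIP (46.3% and 50.8%), and 4.21 points lower in G2 than in G1 (48.1% and 52.3%). All 3 had adjusted p = 0.9 (exact permutation). CtIP A/A G1 and WT G2 replicate 2, with 2 and 3 events, fell under the minimum of 5 events, and with 10 libraries left the smallest p of a test was 0.0278 for DNA-PKcs and CtIP and 0.0556 for phase, before adjustment over 6 tests.

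The C-rich direction was nearly universal. Of the 8487 lines 8461 read as C-rich repeat away from the bait, and 26 lines in 20 events read as G-rich. C-rich lines were 99.6% ± 0.294 of near-end lines without DNA-PKcs and 98.6% ± 3.50 with it (SD, n = 6 each), and 99.8% ± 0.145 and 100% of resected telomere-repeat lines. No G-rich event had more than 2 lines, and 14 had a single line. G-rich lines numbered 9 in CtIP A/A DNA-PKcs -/- G1, 4 in CtIP A/A DNA-PKcs -/- G2 replicate 2, 5 in DNA-PKcs -/- G1, 2 and 3 in the DNA-PKcs -/- G2 libraries, and 3 in WT G1. Examples are an event of 2 lines at bait end 1989 in WT G1 with 2 bases between bait and repeat, an event of 1 line at bait end 1948 in CtIP A/A DNA-PKcs -/- G1 that met the repeat directly, and an event of 2 lines at bait end 1951 in CtIP A/A DNA-PKcs -/- G1 that shared 4 bases with it. G-rich joins at 1951 with 4 shared bases occurred in 3 libraries, CtIP A/A DNA-PKcs -/- G1, DNA-PKcs -/- G1 and DNA-PKcs -/- G2 replicate 2. The C-rich share of events was 3.54 points higher in G2 than in G1 (99.4% and 95.9%, higher in 3 of 3 genotypes, adjusted p = 0.9, exact permutation). For DNA-PKcs the difference was 1.53 points (98.6% without DNA-PKcs and 97.1% with DNA-PKcs, adjusted p = 1, exact permutation) and for CtIP 0.136 points (99.2% with A/A and 99.0% with WT, adjusted p = 0.9). Against resected joins it was -0.890 points (98.4% and 99.3%, adjusted p = 0.967, exact permutation over 10 libraries). Before adjustment, the smallest p that the tests of phase, DNA-PKcs and CtIP allowed was 0.0556, 0.0833 and 0.167 (exact permutation). Those effect tests could thus not have passed the threshold.

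The few near-end lines of the libraries with DNA-PKcs were of a different makeup. Of these 76 lines, 24 (31.6%) had a bait end before the heptamer, so that the bait ran through the whole heptamer, against 24 of 8411 lines (0.285%) without DNA-PKcs. Bases of the partner segment of the substrate stood between bait and repeat in 11 of 76 lines (14.5%) with DNA-PKcs and in 98 of 8411 lines (1.17%) without it. Either feature was present in 35 lines (46.1%) with DNA-PKcs and 121 lines (1.44%) without it. By library the either-feature share was 81.8%, 25% and 100% of 11, 16 and 3 lines in CtIP A/A, and 50%, 33.3% and 40% of 8, 3 and 35 lines in WT, in the order G2 replicate 1, G2 replicate 2 and G1. Bait end 1914 was used in all 6 libraries without DNA-PKcs and in 5 of the 6 with it. The DNA-PKcs difference in lines was 31.6 points without bait ends before the heptamer and 31.1 points without partner-segment reads (p = 0.0139 each, exact permutation), alternatives added after the data were seen.

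Event keys recurred between libraries. In the libraries without DNA-PKcs 15.6% to 23.5% of near-end events had a key also present in another library, and these events held 56.8% to 74.1% of lines. Keys shared with another library without DNA-PKcs of the same run held 18.97% to 48.4% of lines, and keys shared with one of the other run 22.0% to 54.0%. With DNA-PKcs, 15 of the 16 near-end lines of CtIP A/A G2 replicate 2 had a key present in a library without DNA-PKcs of the same run, and 13 of 16 a key present in one of the other run. For WT G1 the numbers were 18 and 13 of 35. Keys of 12 pure repeat bases can take only 6 forms per bait end, so that independent joins can share one, and whether reads passed between libraries of a run was not tested.

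The repeat tracts were mostly but not wholly regular. Among the units that lay between exact units in the libraries without DNA-PKcs, the most frequent departures were CCCTAG at 1.002% ± 0.226, CCCTGA at 0.837% ± 0.102 and CCCCAA at 0.775% ± 0.137 of units (SD, n = 6). CCGTAA was the rarest at 0.0339% ± 0.0376. In lines that began with 12 bases of pure repeat, the next 12 were exact repeat too in 72.0% ± 2.79 of lines without DNA-PKcs (SD, n = 6). A bait window of the same length, in bait alignments without an insertion or deletion, equalled the bait consensus in 95.7% ± 1.73 of lines. Whether departures came from the genome, the amplification or the sequencing was not tested.

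The deposited positions of these preys name places in the assembly but not which repeat tract was joined. Whether that tract lay at a chromosome end or inside a chromosome was not tested. Because the prey is repetitive, lines of a single event were placed on 11 to 22 reference sequences for the 59 events of 30 or more lines (median 18). Of the 8487 lines 8477 lay on the 21 assembled chromosomes of mm10 (GRCm38.p6), spread over 320 bins of 1 Mb, and in 98.4% of them the reference under the alignment held at least 3 exact units. The assembly itself has 557 runs of at least 3 exact units, the longest of 88 units on chromosome 7. The 5 bins with most lines held 1945 lines (22.9%).

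The leading place was chromosome 9, 113261445 to 113261513, with 653 lines from 9 libraries, intergenic in GENCODE M21, 26194 bp from the gene Gm36367 and 11333597 bp from the nearer chromosome end. Chromosome 1, 73853544 to 73853644, had 388 lines from 9 libraries and lay in an intron of the minus-strand lincRNA gene 6030407O03Rik. The array on chromosome 9 is C-rich on the plus strand, and all 653 lines were placed there on the plus strand. The array on chromosome 1 is G-rich on the plus strand, and all 388 lines were placed on the minus strand, so both placements give C-rich reads. A bin of chromosome X had 440 lines, 307 of them at 170880923 to 170881293, intergenic and 150006 bp from the nearer end of the chromosome. Chromosome 16, 98107249 to 98107768, had 252 lines over an array with a run of 38 exact units, 100000 bp from the chromosome's end. All distances to chromosome ends count every position of the assembly, including any left unsequenced. Chromosome 13, 110743966 to 110744550, had 142 of the 208 lines of its bin, intergenic and 9677089 bp from the nearer end. The 5 bins held 19.1% to 30.3% of the near-end lines of each library without DNA-PKcs.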

How the data were processed

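Genomic DNA was sonicated, amplified with a bait primer on the substrate and sequenced on a MiSeq after BstBI had removed germline substrate, per the labels' protocols. The substrate was added to mm10 as an extra chromosome, per the same protocols. Bowtie2 and mm10 are the tool and build in the submitters' processing notes. Their versions, the junction caller and its duplicate handling are not given in the sources used here. Each line of the deposited tables is 1 junction with its base positions and read. The deposited uncut column holds, per the file headers, a count of bases that pass the break.

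The members, lists and tests were chosen with earlier results of these data known. Bait ends were measured from the heptamer border found in the reads. Most events and places named follow a rule: the event with most lines per genotype, orientation and junction class, the 5 leading bait ends, the 5 leading bins and all 6 registers. Named outside this rule were the events that did not begin with pure repeat and the single pairs of bait end and register. Shares per library were compared over strata by exact permutation, and within libraries by exact sign flips, two-sided, adjusted by Benjamini-Hochberg within families of 6, 6 and 4 tests (threshold 0.05). Intervals invert the permutation test. Code was tested on simulated data and used Python 3.11.15, numpy 2.4.6, pandas 2.3.3, scipy 1.17.1 and matplotlib 3.10.9. Depth was 289 to 7068 junctions per library. Run came from read names. The 6 I-PpoI samples are not analysed here, and read and reference sequences are not reported here. Replicate numbers were not taken to pair samples.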

Additional observations from a re-analysis of the deposited data

Results flagged for a closer look

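The CtIP effect on near-end telomere-repeat joins ran in opposite directions between strata, and these differences between strata were not tested. Strata were singled out where every library of one side lay beyond every library of the other, which a stratum with 1 library each always meets. In G1 cells without DNA-PKcs, CtIP A/A minus WT CtIP was 19.1 points of lines and 6.06 points of events (1 library each). In G1 cells with DNA-PKcs it was -0.810 points of lines and -0.584 points of events (1 library each). In G2 cells with DNA-PKcs it was 1.13 points of lines and 0.709 points of events (2 libraries each). In G2 cells without DNA-PKcs, where the libraries of both sides overlapped, it was -14.7 points of lines and -5.41 points of events (2 libraries each).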

How the results depend on the processing

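Of 414 alternative values over the 16 tested results, 319 kept their direction and side of the threshold, 18 lost the call, 1 gained it and 76 changed sign. The 18 lost calls were all of the DNA-PKcs effect on the share, which kept its direction in every alternative. Each sign change was of a difference that had not passed the threshold.

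The DNA-PKcs effect was 38.3 points of lines and 24.3 of events in run 1 alone, 30.7 and 12.3 in run 2 alone, and 33.2 and 16.3 with the replicate block (adjusted p = 0.0938, exact permutation). Each run alone holds fewer libraries. The block keeps all libraries but allows fewer arrangements, and its p before adjustment was the smallest that it allows. Replicate numbers were not shown to pair the samples, since the G2 replicates of the genotypes without DNA-PKcs differed in opposite directions (27.5 and -23.0 points of lines, replicate 1 minus 2). Leaving out 1 library at a time gave 27.8 to 36.5 points of lines and 11.5 to 17.5 of events, and the adjusted p rose to 0.0741 or 0.0833 (exact permutation) without any G1 library or either CtIP A/A G2 library. For CtIP the ranges were -4.79 to 4.62 and -2.79 to 3.18 points, and for phase -0.643 (without DNA-PKcs -/- G1) to 10.6 and 2.76 to 9.504.

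The CtIP effect on the share turned to -1.79 points of lines and -1.44 of events with bait loss up to 100 bp, -1.86 of events among junctions outside the substrate, -0.0343 and -0.105 as log odds, -5.00 and -3.59 in run 2 alone, and -1.48 and -0.653 with the replicate block.

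For the DNA-PKcs effect on inserted joins the values were 3.72 with 2 units, 7.15 with 100 bp, 1.38 without uncut bases and short alignments, 11.2 with at least 10 events and 15.2 by the repeat run. They were 0.850 without bait ends before the heptamer, 6.70 without partner-segment reads and 7.70 with merged keys and the repeat run, and -11.5 to 7.42 leaving out 1 library. The CtIP effect on inserted joins was 2.19 with 20 bp and 2.35 with the replicate block (-14.0 to 4.93 leaving out 1 library), and that of phase was 1.73 with 20 bp, 2.77 by the repeat run and 8.01 by lines and the repeat run. The effect on C-rich orientation was -2.39 with 20 bp for DNA-PKcs (-0.876 to 2.59 leaving out 1 library) and, for CtIP, -1.16 with 2 units, -0.132 with 100 bp and -0.0457 with the replicate block (-0.296 to 0.527).

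Against coding joins, the inserted share differed by -10.9 to 37.9 points over 18 alternatives (2.69 to 11.6 leaving out 1 library). It was positive in 14 of them, among them 13.5 by the repeat run and, in the libraries without DNA-PKcs, 30.8 with merged keys and the repeat run and 37.9 by the repeat run. It was -0.538 with a key of 24 bases, -2.28 by lines, -10.9 by lines and the repeat run, and -0.274 by the last in the libraries without DNA-PKcs. The microhomology share differed by -3.43 with 6 units, -1.12 without uncut bases and short alignments, -1.13 with at least 10 events, -8.02 by the repeat run, -0.878 without bait ends before the heptamer, -8.34 with merged keys and the repeat run (-3.00 to 3.06 leaving out 1 library). In the libraries without DNA-PKcs it was -8.57, -18.6 by the repeat run, -4.57 by lines, -2.20 by lines and the repeat run, and -17.8 with merged keys and the repeat run. Against resected joins, the inserted share differed by -1.91 with 2 units, -0.862 with a key of 24 bases, -2.01 by lines, -0.581 without bait ends before the heptamer, -2.46 without partner-segment reads and -0.304 with merged keys and the repeat run (-2.47 to 4.65 leaving out 1 library). In the libraries without DNA-PKcs it was -3.62, -5.72 by lines, -1.53 by lines and the repeat run and -6.20 with merged keys and the repeat run. The C-rich share against resected joins was 0.0974 with 20 bp and 3.63 with 100 bp. Causes of these changes were not tested. The libraries with DNA-PKcs, with 3 to 35 near-end lines each, limit every comparison of their makeup.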
